A study of Rattus norvegicus with 24 samples.

Results

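The genes described here are 6 markers of hippocampal subfields, measured in tissue dissected as CA1: Wfs1, Fibcd1 and Pou3f1, which mark pyramidal cells of CA1, Pcp4 and Rgs14, which mark CA2, and Prox1, which marks granule cells of the dentate gyrus. They were chosen by name, with earlier results of these data known, out of 14218 genes that the platform annotation names with a single symbol. Every probe set of these 6 genes with such a symbol was taken. That gave 7 probe sets, 1 for each gene and a second for Prox1. Total RNA of 23 male Long-Evans rats was hybridised to Affymetrix rat arrays, 1 array per rat. The groups were aged rats of 24 to 26 months with impaired spatial learning (8 arrays), aged rats of the same age with unimpaired learning (6 arrays) and young rats of 6 months (9 arrays). Learning was scored in the Morris water maze, and an aged rat was called impaired when its learning index was worse than the range of the young rats. No group carried a transgene or received a drug, all rats were housed singly, and all were killed 2 weeks after behavioural testing. Signals are given on the log2 scale of the deposited values, on which a difference of 1 is a doubling, and a level can be compared between arrays but not between probe sets.

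The hippocampus is a chain of fields. Granule cells of the dentate gyrus excite CA3 pyramidal cells, CA3 and the small field CA2 excite CA1, and CA1 is the main output to the subiculum. The fields lie side by side, so that tissue cut as CA1 borders on CA2 and lies across the hippocampal fissure from the dentate gyrus. Each field has genes by which it is recognised. Wfs1 encodes a membrane protein of the endoplasmic reticulum whose loss causes Wolfram syndrome in humans. Fibcd1 encodes a transmembrane receptor for acetylated compounds, and Pou3f1, also known as SCIP or Oct-6, a transcription factor of the POU family. Pcp4 (PEP-19) encodes a small protein that binds calmodulin, and is also abundant in Purkinje cells of the cerebellum. Rgs14 encodes a regulator of G protein signalling that limits plasticity of CA2 synapses in mice. Prox1 encodes a homeobox transcription factor that maintains granule cell identity in mice, and is also found there in some interneurons.

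The sequences upstream of the members are shown as a description, and no link between them and the signals was tested. RefSeq promoter windows of build GRCr8 were at hand for 4 of the members, but not for Pou3f1 or Prox1. Each is the 250 bases before an annotated transcript start, on the strand of the gene. For Pcp4 that start lies within the annotated gene, which runs from 49229185 to 49331186, and is not its outermost one. Matches to the GC box (GGGCGG, either strand) are in capitals. The windows are Wfs1 at chr14:78034955-78035204 (plus strand), Fibcd1 at chr3:35524143-35524392 (minus strand), Pcp4 at chr11:49269936-49270185 (plus strand) and Rgs14 at chr17:9268234-9268483 (minus strand).
Wfs1: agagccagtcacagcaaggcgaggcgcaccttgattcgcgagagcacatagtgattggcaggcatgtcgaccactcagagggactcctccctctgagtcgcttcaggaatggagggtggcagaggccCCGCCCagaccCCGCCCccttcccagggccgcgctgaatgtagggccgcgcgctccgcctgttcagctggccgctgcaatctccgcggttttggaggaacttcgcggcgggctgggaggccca
Fibcd1: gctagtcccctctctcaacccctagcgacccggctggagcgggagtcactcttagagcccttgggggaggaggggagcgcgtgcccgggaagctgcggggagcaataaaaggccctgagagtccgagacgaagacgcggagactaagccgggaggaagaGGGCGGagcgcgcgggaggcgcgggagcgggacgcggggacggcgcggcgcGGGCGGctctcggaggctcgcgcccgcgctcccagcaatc
Pcp4: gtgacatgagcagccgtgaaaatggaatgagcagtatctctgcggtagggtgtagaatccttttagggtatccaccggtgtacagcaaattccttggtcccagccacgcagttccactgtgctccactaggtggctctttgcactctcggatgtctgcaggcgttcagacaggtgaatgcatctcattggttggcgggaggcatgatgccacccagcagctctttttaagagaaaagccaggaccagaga
Rgs14: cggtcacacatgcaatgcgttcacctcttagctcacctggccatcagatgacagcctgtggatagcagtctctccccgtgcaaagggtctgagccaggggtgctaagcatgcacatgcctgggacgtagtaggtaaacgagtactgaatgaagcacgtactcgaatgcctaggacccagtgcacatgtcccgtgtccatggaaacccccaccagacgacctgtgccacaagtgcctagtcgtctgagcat
The windows of the CA1 markers Wfs1 and Fibcd1 were rich in G and C, at 66.0% and 72.0%. Each held 2 GC boxes, at bases -123 and -112 of Wfs1 and at -91 and -40 of Fibcd1. Positions are the first base of the match, counted back from the start. The windows of the CA2 markers had 52.4% G and C for Pcp4 and 55.6% for Rgs14, with no GC box. Over 33469 rat promoter windows of the same length the median was 51.2%, and 30.5% held a GC box. The octamer bound by POU factors such as Pou3f1 (ATGCAAAT, either strand) was found in none of the 4 windows and in 1.56% of all windows. The TATA box (TATAAA, in 12.9% of all windows) and the cyclic AMP response element (TGACGTCA, in 1.59%) were also found in none of the 4. A match is a description of these letters and not a binding site.

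All 3 CA1 markers lay far above the limit of 4 used here for dim probe sets on every array, at mean signals of 11.25 (Wfs1), 10.94 (Fibcd1) and 10.81 (Pou3f1). So did Pcp4 at 10.22, Rgs14 at 9.72 and the brighter probe set of Prox1 at 7.56, so that transcripts taken as marks of neighbouring fields gave a signal in all 23 arrays. The second probe set of Prox1 stayed between 2.01 and 2.11, over the limit on 0 of 23 arrays, and carries no information on the gene. What follows on Prox1 rests on a single probe set. Array medians over all probe sets ran from 4.2 to 4.28. RNA quality was read from control transcripts as the 3′ minus the 5′ probe set signal, and no correlation of it with a member passed within groups (Pearson r from -0.16 for Pou3f1 to 0.01 for Pcp4, n = 23, permutation adjusted p = 0.985 for each). Array labels were kept as given, also for young replicate 9, whose column stands among those of aged unimpaired rats.

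A few arrays stood apart in the markers of neighbouring fields. Young replicate 4, aged impaired replicate 5 and young replicate 6 held the 3 highest signals of Pcp4 (11.05, 10.99 and 10.87) and also the 3 highest of Prox1 (8.58, 8.33 and 8.15). Cpne4, a copine in the list of CA3 markers, reached 9.02 in aged impaired replicate 2, 8.34 in aged impaired replicate 5, 8.18 in young replicate 6 and 7.85 in young replicate 4, and was no higher than 7.14 in the other arrays. Nectin3, a cell adhesion protein of the same list, was also high there, at 5.85, 5.37, 5.77 and 5.87 in the same order, against a mean of 4.77 over all arrays. No aged unimpaired array was among these 4. The 4 arrays were not alike in all markers. Counted from the highest, aged impaired replicate 2 was at rank 7 for Pcp4, 13 for Prox1 and 1 for Rgs14. Young replicate 4 was at rank 17 for Rgs14. Pou3f1 was lowest of all arrays in young replicate 4, at 10.39, and Wfs1 was lowest there too, at 10.83. In aged impaired replicate 5 the CA1 markers lay on different sides: Fibcd1 was at 11.17, the highest value of its group, while Wfs1 was at 11.06 and Pou3f1 at 10.73, each at rank 16 of 23 arrays from the highest. Each comparison was therefore also computed without these 4 arrays, a choice made after the data were seen.

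**Figure D1:**
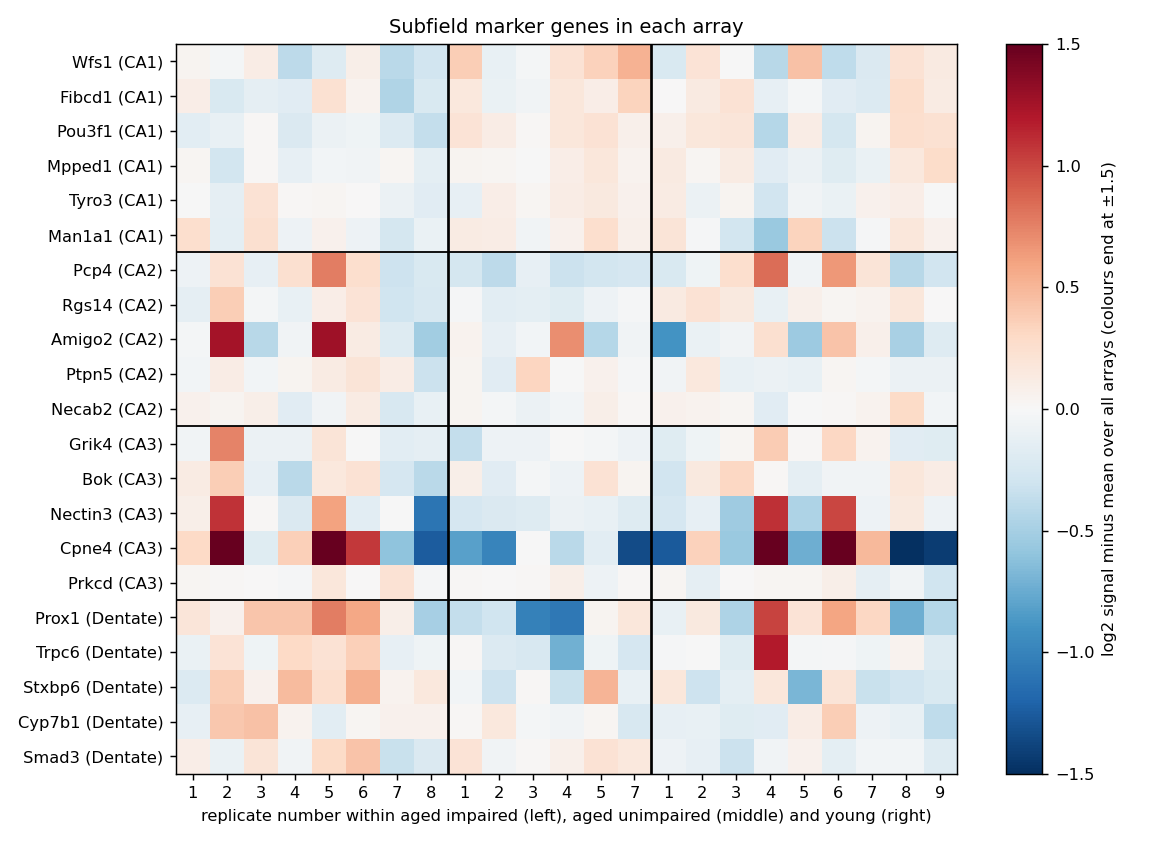
Signal of each subfield marker gene (rows, grouped by field) in each array (columns, aged impaired left, aged unimpaired middle, young right), as the difference in log2 signal from the gene's mean over all 23 arrays. Cpne4 reached 9.02 in aged impaired replicate 2 and 7.85 in young replicate 4, and Pou3f1, in the third row, has its lowest signal of all arrays (10.39) in young replicate 4.

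Wfs1 ran from 10.84 through a median of 11.14 to 11.36 in aged impaired arrays, from 11.14 through 11.53 to 11.77 in aged unimpaired arrays and from 10.83 through 11.24 to 11.69 in young arrays. Its means were 11.11 ± 0.21 (SD, n = 8), 11.47 ± 0.25 (n = 6) and 11.22 ± 0.30 (n = 9) in that order of groups. All 8 aged impaired arrays lay below the mean of the aged unimpaired ones, though the ranges overlapped. Fibcd1 ran from 10.49 through 10.79 to 11.17 in aged impaired arrays, from 10.85 through 11.07 to 11.28 in aged unimpaired arrays and from 10.74 through 10.95 to 11.21 in young arrays. Its means were 10.84 ± 0.22 (SD, n = 8), 11.04 ± 0.16 (n = 6) and 10.97 ± 0.17 (n = 9). The order of the means was the same as for Wfs1, with aged unimpaired highest, young next and aged impaired lowest.

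Pou3f1, the third CA1 marker, ran from 10.46 through 10.68 to 10.83 in aged impaired arrays, from 10.83 through 10.96 to 11.03 in aged unimpaired arrays and from 10.39 through 10.92 to 11.07 in young arrays. Its means were 10.67 ± 0.11 (SD, n = 8), 10.95 ± 0.08 (n = 6) and 10.86 ± 0.23 (n = 9). The aged groups all but separated: 7 of 8 aged impaired arrays lay below every aged unimpaired array. The young range covered both because of replicates 4 and 6, at 10.39 and 10.55. All 8 aged impaired arrays were below the young mean.

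Pcp4, the calmodulin-binding CA2 marker, ran from 9.91 through 10.29 to 10.99 in aged impaired arrays, from 9.83 through 9.95 to 10.09 in aged unimpaired arrays and from 9.80 through 10.16 to 11.05 in young arrays. Its means were 10.31 ± 0.35 (SD, n = 8), 9.95 ± 0.09 (n = 6) and 10.31 ± 0.43 (n = 9). The aged impaired and young means coincided, and the aged unimpaired arrays were low and close together. Rgs14, the CA2 regulator of G protein signalling, ran from 9.42 through 9.65 to 10.09 in aged impaired arrays, from 9.53 through 9.61 to 9.70 in aged unimpaired arrays and from 9.61 through 9.79 to 9.93 in young arrays. Its means were 9.70 ± 0.23 (SD, n = 8), 9.62 ± 0.07 (n = 6) and 9.80 ± 0.10 (n = 9), with the young mean highest. Of the 9 young arrays, 8 lay above every aged unimpaired array.

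Prox1, the granule cell marker, varied most. It ran from 7.06 through 7.86 to 8.33 in aged impaired arrays, from 6.49 through 7.24 to 7.73 in aged unimpaired arrays and from 6.83 through 7.71 to 8.58 in young arrays. Its means were 7.81 ± 0.39 (SD, n = 8), 7.14 ± 0.52 (n = 6) and 7.62 ± 0.55 (n = 9), the reverse of the order of the CA1 markers. Of 8 aged impaired arrays, 5 lay above every aged unimpaired array. The SD within groups was 0.49 for Prox1, larger than that of 98.7% of the 9076 genes tested, 0.34 for Pcp4 (larger than 95.7%) and 0.26 for Wfs1 (larger than 89.3%). It was 0.19 for Fibcd1, 0.17 for Pou3f1 and 0.15 for Rgs14, near the median of 0.14 over all genes. These spreads set how large a difference the arrays can show.

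**Figure D2:**
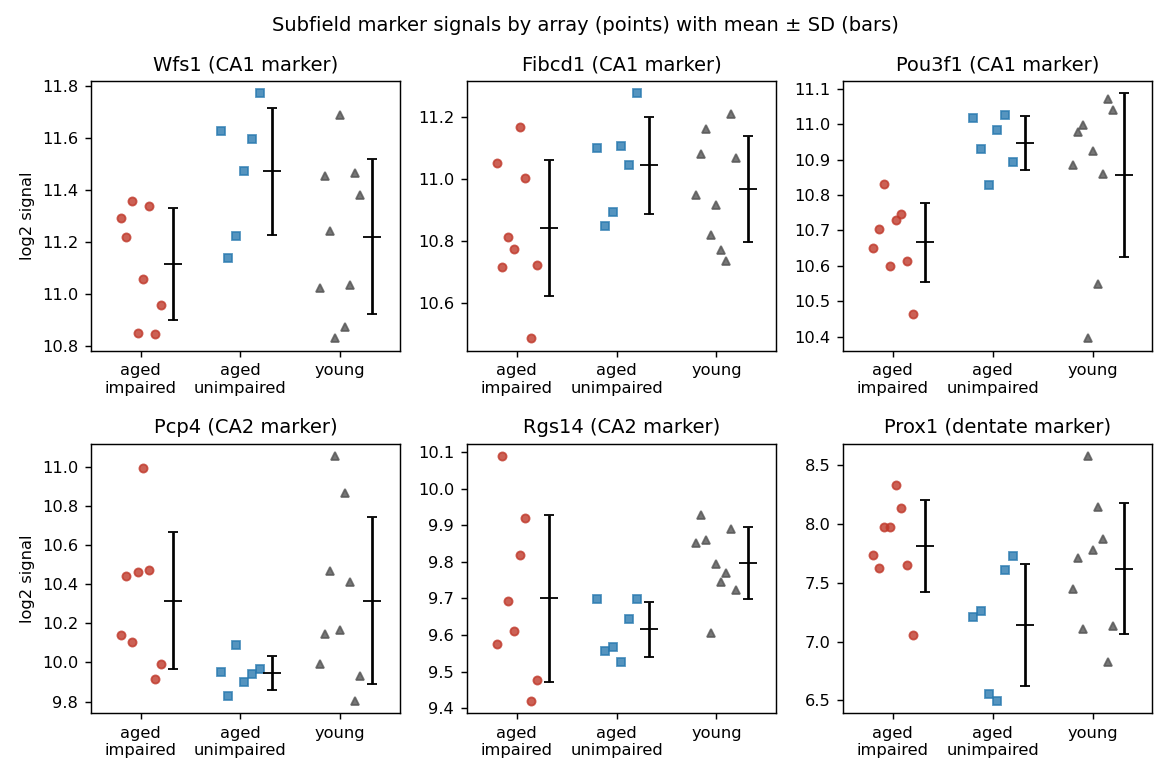
Log2 signal of the 6 members in each array (points, groups on the horizontal axis) with the mean ± SD of each group (black bars). For the CA1 markers the aged unimpaired mean is the highest of the 3 groups (11.47 for Wfs1), while for Pcp4 and Prox1 it is the lowest (7.14 for Prox1).

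The comparison of aged impaired with aged unimpaired rats asks what goes with learning at the same age, and here the CA1 markers lay on the opposite side from Pcp4 and Prox1. In aged impaired arrays Wfs1 was lower by a log2 difference of -0.36 ± 0.13 (SE), Pou3f1 by -0.28 ± 0.09 and Fibcd1 by -0.20 ± 0.10, while Prox1 was higher by 0.67 ± 0.25, or 1.59-fold, and Pcp4 by 0.37 ± 0.17, or 1.29-fold. None of these differences was called. Limma, adjusted over 9076 genes by Benjamini-Hochberg, called 0 of 6 members, beside 0% of all genes. The smallest adjusted p was 0.562, for Pou3f1. At an unadjusted p under 0.05 limma counted 5 of 6 members, where the share over all genes was 6.93%, and the exact permutation test over arrays counted 4 of 6. The unadjusted limma p was 0.00361 for Pou3f1, 0.0127 for Wfs1, 0.0128 for Prox1, 0.0448 for Pcp4 and 0.0472 for Fibcd1. The 2-sided exact permutation p was 0.00133, 0.0173, 0.0213, 0.0113 and 0.0739 in the same order. These members are not independent of each other, as the correlations below show, so their count cannot be read as 5 separate results. All 6 members were also chosen with earlier results of these data known. The count beside the share over all genes is therefore a description and not a test. The remaining member, Rgs14, differed by 0.09 ± 0.08, with a 95% interval from -0.08 to 0.25 (limma).

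The directions held when arrays were left out, although the adjusted test was never passed. Over the 23 fits that left out 1 array, the difference in Prox1 ranged from 0.54 to 0.79, in Wfs1 from -0.42 to -0.30 and in Pou3f1 from -0.30 to -0.25, each at an unadjusted limma p under 0.05 in all 23. For the other 2 this was not so: Pcp4, from 0.27 to 0.43, was under 0.05 in 14 of 23 fits and Fibcd1, from -0.25 to -0.15, in 10 of 23. Without the 4 arrays of highest Cpne4 the differences were 0.61 for Prox1, -0.36 for Wfs1, -0.30 for Pou3f1, -0.24 for Fibcd1 and 0.23 for Pcp4. Adding the signal of Prox1 as a covariate left a difference of -0.32 ± 0.15 for Wfs1, -0.19 ± 0.09 for Pou3f1 and -0.19 ± 0.11 for Fibcd1. It left 0.07 ± 0.16 for Pcp4, against 0.37 without the covariate.

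**Figure D3:**
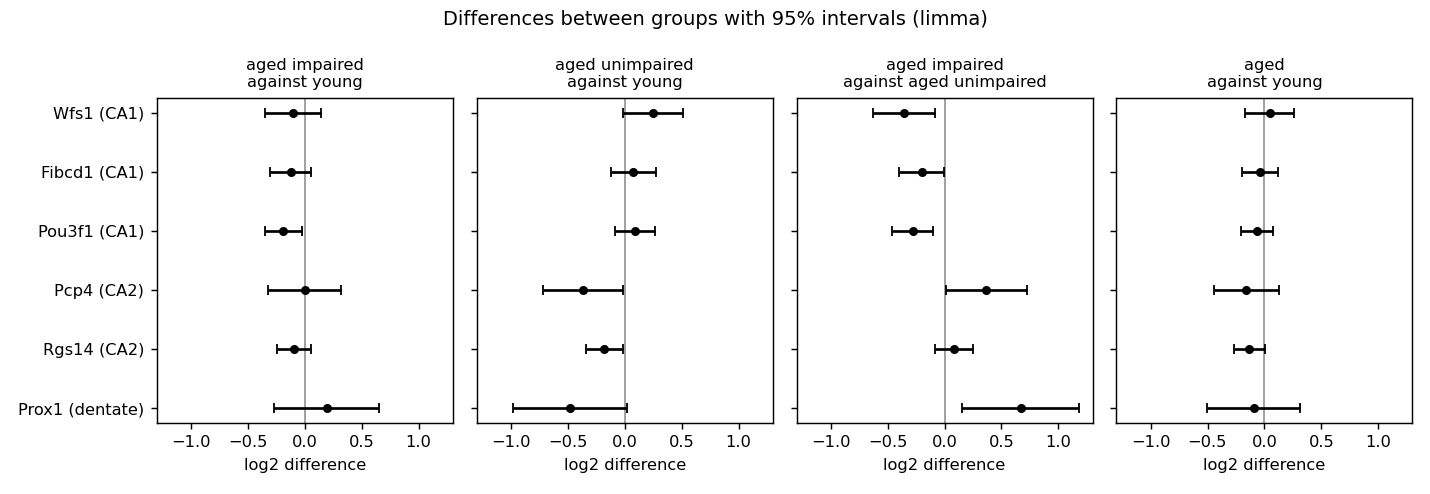
Log2 differences of the 6 members in 4 comparisons (points, first-named group minus second) with 95% intervals from limma. In aged impaired against aged unimpaired the intervals of 5 members leave 0 (Prox1 at 0.67, Wfs1 at -0.36), and no member passed after adjustment over all genes in any of the 4 comparisons.

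Other markers of the fields, from wider lists drawn up with earlier results of these data known, lay on the same sides for CA1 and for most dentate genes. The counts and medians of the lists include the members, so they are not separate from the values given above. All 6 measured CA1 markers had a negative difference, lower in the aged impaired group. Their median log2 difference was -0.17, against -0.01 over all genes tested. Beside the members these were Mpped1 at -0.13 ± 0.07, Man1a1, a Golgi mannosidase, at -0.11 ± 0.11 and the receptor tyrosine kinase Tyro3 at -0.07 ± 0.06. Of 5 measured dentate markers 4 were higher, with a median of 0.26. They were Prox1, the cation channel Trpc6 at 0.34 ± 0.16, Stxbp6, a SNARE-binding protein, at 0.26 ± 0.14 and Cyp7b1, a steroid hydroxylase, at 0.12 ± 0.10, while the signalling protein Smad3 was at -0.07 ± 0.09. Of the 5 measured CA3 markers 4 were higher, with a median of 0.15. They were Cpne4 at 1.23 ± 0.63, Nectin3 at 0.21 ± 0.27, the kainate receptor subunit Grik4 at 0.15 ± 0.12 and the kinase Prkcd at 0.04 ± 0.05, with Bok, a BCL2 family protein, at -0.06 ± 0.11. Of the 5 CA2 markers 3 were higher and 2 lower, with a median of 0.09, which is the value of Rgs14. Beside the members, Amigo2 was at 0.16 ± 0.26, the phosphatase Ptpn5 at -0.02 ± 0.07 and the calcium-binding protein Necab2 at -0.03 ± 0.06. No gene of these lists was called (limma, 0% of all genes), and 3 CA1, 1 CA2, 0 CA3 and 2 dentate genes had an unadjusted p under 0.05, all of them members except Trpc6. The adjusted p of Trpc6 was 0.714 and that of Cpne4 0.729 (limma, Benjamini-Hochberg). Several fixed markers could not be followed: Spink8 of CA1, Dsp and Tdo2 of dentate, Iyd, Coch and Tspan18 of CA3, and Cacng5, Avpr1b and Ntf3 of CA2 were dim in these arrays.

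**Figure D4:**
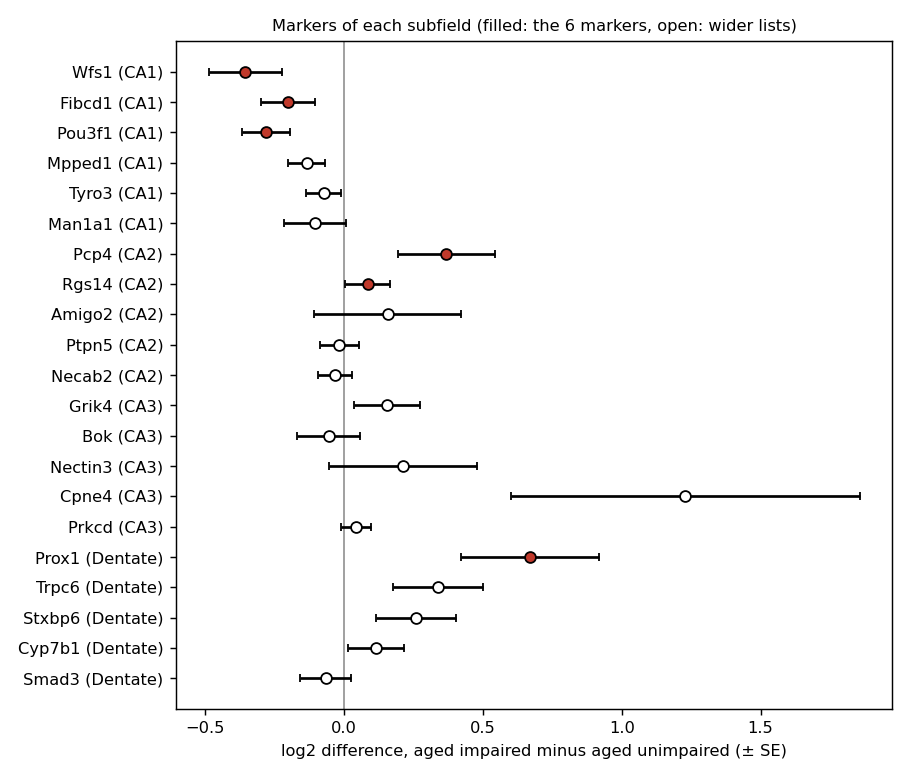
Log2 difference, aged impaired minus aged unimpaired, with its SE, for 21 measured markers of CA1, CA2, CA3 and dentate gyrus (filled points are the 6 members, open points the wider lists). All 6 CA1 genes lie left of 0 (Wfs1 at -0.36), and 4 of 5 dentate genes lie right of it (Prox1 at 0.67).

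Markers of other cell types and of neighbouring regions are given beside these values for the same comparison, in which none of their genes was called. Of 7 measured oligodendrocyte markers 6 were higher in aged impaired arrays (median log2 difference 0.14), with the myelin-associated glycoprotein gene Mag at 0.34 ± 0.13 and Cnp at 0.19 ± 0.08. Their mean signal per array ran from 11.94 to 12.38 in aged impaired, against 11.81 to 12.12 in aged unimpaired arrays. Of 7 endothelial markers all 7 were higher (median 0.07). Of 6 pan-neuronal markers 4 were higher (median 0.05), with a mean signal per array from 12.23 to 12.47 in aged impaired, against 12.28 to 12.48 in aged unimpaired arrays. Of the 8 astrocyte markers 7 were higher (median 0.05), and of the 8 microglia markers 5 (median 0.11). Of 8 interneuron markers 4 were higher and 4 lower (median -0.01), with Gad1, which makes GABA, at 0.16 ± 0.06 and Reln, which encodes reelin, at 0.30 ± 0.13. The unadjusted limma p was 0.0236 for Gad1 and 0.0339 for Reln. Of 6 markers of neocortex and subiculum 3 were higher and 3 lower (median -0.02), with the neuropeptide gene Nts at -0.46 ± 0.14. Its unadjusted limma p of 0.00343 was smaller than that of any member, and its adjusted p was 0.562. Of 3 measured thalamus markers 2 were higher (median 0.07). Of the choroid plexus list Ttr alone was measured, at 0.63 ± 0.54. The part of any of these cell types or regions in the differences of the members was not tested, and in dissected tissue fewer cells of a type and less RNA per cell cannot be told apart.

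Set against young rats, aged impaired rats gave no call. Prox1 was higher by a log2 difference of 0.19 ± 0.22 (SE), and the others were lower: Pou3f1 by -0.19 ± 0.08, Fibcd1 by -0.13 ± 0.09, Wfs1 by -0.11 ± 0.12 and Rgs14 by -0.10 ± 0.07, with Pcp4 at 0.00 ± 0.16 to 2 decimals. Limma called 0 of 6 members, beside 3.8% of all genes, and 1 of 6 had an unadjusted p under 0.05, where the share over all genes was 16.5%. By the exact permutation test the number was 0. For Pou3f1 the adjusted p was 0.214 (limma, Benjamini-Hochberg) and the exact permutation p was 0.0562. This value turned on young replicate 4: without that array Pou3f1 was called, at -0.25 ± 0.06 with an adjusted p of 0.0317 (limma, Benjamini-Hochberg). Without the 4 arrays of highest Cpne4 it was called too, at -0.32 ± 0.06 with an adjusted p of 0.00631, by a choice of arrays made after the data were seen. Rgs14 was then at -0.21 ± 0.07 (adjusted p = 0.104, limma) and Fibcd1 at -0.21 ± 0.09 (adjusted p = 0.289, limma).

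Set against young rats, aged unimpaired rats had their largest differences in Prox1, Pcp4 and Wfs1, none of them called. Prox1 was lower by a log2 difference of -0.48 ± 0.24 (SE), Pcp4 by -0.37 ± 0.17 and Rgs14 by -0.18 ± 0.08, while Wfs1 was at 0.25 ± 0.13, Pou3f1 at 0.09 ± 0.08 and Fibcd1 at 0.08 ± 0.09. Limma called 0 of 6 members, beside 0.76% of all genes. At an unadjusted p under 0.05 both limma and the exact permutation test counted 2 of 6, where the share over all genes by limma was 9.84%. They were Rgs14, with an exact permutation p of 0.0036 and an adjusted p of 0.427 (limma), and Pcp4, with an exact permutation p of 0.0376 and an adjusted p of 0.464 (limma). All 6 aged unimpaired arrays were below the young mean in both genes. Without the 4 arrays of highest Cpne4, of which 2 were young, Pcp4 was at -0.18 ± 0.11 and Prox1 at -0.27 ± 0.22, while Rgs14 was at -0.21 ± 0.07. This comparison and the preceding one share the young arrays.

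With both aged groups pooled, no member was called against young rats. The log2 differences, aged minus young, were 0.05 ± 0.10 (SE) for Wfs1, -0.04 ± 0.08 for Fibcd1, -0.07 ± 0.07 for Pou3f1, -0.16 ± 0.14 for Pcp4, -0.13 ± 0.06 for Rgs14 and -0.10 ± 0.20 for Prox1. The 95% intervals ran from -0.17 to 0.26 for Wfs1 and from -0.50 to 0.31 for Prox1 (limma). Each of these differences is known only to within such a range. Limma called 0 of 6, beside 3.71% of all genes, with 0 of 6 at an unadjusted p under 0.05 by limma or by the exact permutation test, where the share over all genes by limma was 15.3%. Rgs14 came closest, with an exact permutation p of 0.0602 and an adjusted p of 0.327 (limma). Of 14 aged arrays, 6 had less Rgs14 than every young array. The group ranges overlapped for all 6 members in every comparison. They did not overlap for 0.496% of all genes in aged impaired against young, 0.771% in aged unimpaired against young, 0.165% between the aged groups and 0.176% in aged against young. In aged against young 4 of 8 measured microglia markers and 2 of 8 astrocyte markers were called higher, beside 3.09% of all genes. None of the 21 measured subfield markers was called in either direction, beside 3.71% of all genes. At that share so few genes can be without a call whatever they mark.

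Within groups the CA1 markers varied together from rat to rat. After group means were removed, Wfs1 correlated with Pou3f1 at Pearson r = 0.69 (Spearman rho 0.70, permutation adjusted p = 0.00675 over 15 pairs, n = 23) and with Fibcd1 at r = 0.63 (rho 0.68, permutation adjusted p = 0.0101). Without the 2 arrays farthest from the median of Wfs1 these were 0.79 and 0.70. Fibcd1 and Pou3f1 correlated at 0.52 (rho 0.58, permutation adjusted p = 0.0237), and at 0.61 without the 2 arrays farthest from the median of Fibcd1. In single groups these r were all positive but uneven, and none passed by exact permutation after adjustment. In aged impaired, aged unimpaired and young arrays Wfs1 gave 0.71, 0.42 and 0.77 with Pou3f1. With Fibcd1 it gave 0.51, 0.94 and 0.62. Fibcd1 with Pou3f1 gave 0.39, 0.25 and 0.74. Rgs14, a CA2 marker, correlated with CA1 members, at 0.50 with Wfs1 (rho 0.54, permutation adjusted p = 0.0234) and 0.49 with Pou3f1 (rho 0.58, permutation adjusted p = 0.0157). The second of these rested on 2 arrays: it was 0.32 without the 2 farthest from the median of Pou3f1. With Fibcd1 Rgs14 was at r = 0.44, which did not pass (permutation adjusted p = 0.137, r = 0.27 without the 2 farthest arrays). By ranks this pair just passed (rho 0.50, permutation adjusted p = 0.0494). With Pcp4, the other CA2 member, Rgs14 was at 0.14 (rho 0.20, permutation adjusted p = 0.793). Its r was higher with genes of the wider lists than with any member, at 0.68 with Bok of CA3 (rho 0.64, permutation adjusted p = 0.0321) and 0.65 with Necab2 of CA2 (rho 0.65, permutation adjusted p = 0.0296).

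Pcp4 varied with Prox1 instead, at r = 0.65 over 23 arrays (rho 0.56, permutation adjusted p = 0.00825). Without the 2 arrays farthest from the median of Pcp4, which are among those that stood apart, r was 0.48 and the permutation adjusted p was 0.0843. The groups were not alike in this pair. Its r was 0.72 in aged impaired and 0.83 in young arrays, but -0.26 (rho 0.09) in the 6 aged unimpaired arrays. None of these passed (exact permutation adjusted p = 0.172, 0.0625 and 0.709). Of the 15 pairs of members, 6 passed after adjustment, all with a positive r. The most negative r, of Pou3f1 with Pcp4, came close to passing, at -0.55 (rho -0.33, permutation adjusted p = 0.0568). The closest link of Pcp4 to a gene of the wider subfield lists was with Cpne4, the CA3 marker, at r = 0.85 (rho 0.79, permutation adjusted p = 0.0018 over 90 pairs, 0.82 without the 2 farthest arrays). It also correlated with Amigo2, an adhesion protein of CA2 and CA3 cells, at 0.69 (rho 0.65, permutation adjusted p = 0.00855, 0.59 without the 2 farthest arrays) and with Grik4 of CA3 at 0.66 (rho 0.71, permutation adjusted p = 0.0296, 0.61 without the 2 farthest arrays). In aged unimpaired arrays alone r was 0.45 with Cpne4, -0.13 with Amigo2 and -0.09 with Grik4. In the same order it was 0.79, 0.80 and 0.48 in aged impaired and 0.92, 0.80 and 0.98 in young arrays. Prox1 correlated with Trpc6, of the dentate list, at 0.63 (rho 0.50, permutation adjusted p = 0.0296, 0.60 without the 2 farthest arrays). The arrays left out were aged unimpaired replicates 3 and 4. Young replicate 4, with the highest signal of both Prox1 (8.58) and Trpc6 (6.19), stayed in. The mean of Trpc6 over all arrays was 5, not far above the limit of 4 for dim probe sets. For CA1, Pou3f1 correlated with Mpped1 at 0.68 (rho 0.62, permutation adjusted p = 0.0296, 0.63 without the 2 farthest arrays) and Wfs1 with Man1a1 at 0.64 (rho 0.62, permutation adjusted p = 0.0296, 0.59 without the 2 farthest arrays). In all, 14 of the 90 pairs passed, of which 7 joined a member to a gene of its own field and 7 to a gene of another. Those across fields included Wfs1 and Pou3f1 with Necab2 of CA2 at 0.61 and 0.62 (permutation adjusted p = 0.0296 each), Pcp4 with Trpc6 of dentate at 0.59 (permutation adjusted p = 0.0296) and Prox1 with Cpne4 of CA3 at 0.55 (permutation adjusted p = 0.0475). The remaining pairs were Pou3f1 with Man1a1 at 0.68 and with Tyro3 at 0.64, both of CA1. Without the 2 farthest arrays 4 pairs still passed, those of Pcp4 with Cpne4 and Grik4, Wfs1 with Necab2 (0.75) and Prox1 with Cpne4 (0.71), and the other 10 did not. For Prox1 this left out aged unimpaired replicates 3 and 4 (6.55 and 6.49) and kept the 4 arrays of highest Cpne4. It therefore cannot show whether the pair rested on those 4. The r of Prox1 with Cpne4 was 0.52 in aged impaired, -0.58 in aged unimpaired and 0.89 in young arrays.

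After group means were removed, no correlation of a CA1 marker with Prox1 passed over all arrays. The r was -0.09 for Wfs1, -0.06 for Fibcd1 and -0.39 for Pou3f1 (permutation adjusted p = 0.804, 0.84 and 0.163). With group means left in, Pou3f1 and Prox1 gave r = -0.53, which passed (permutation adjusted p = 0.0222). Values within each group are given beside these. In aged impaired arrays these pairs had a positive r that did not pass. Pou3f1 and Prox1 gave r = 0.75 (rho 0.69, exact permutation adjusted p = 0.154, n = 8), with 0.53 without the 2 arrays farthest from the median of Pou3f1 and 0.43 without replicate 8. Fibcd1 and Prox1 gave 0.60 (rho 0.76, exact permutation adjusted p = 0.22). In the 6 aged unimpaired arrays the values were 0.27 for Pou3f1 and 0.41 for Fibcd1.

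Among the 9 young arrays Prox1 and Pou3f1 ran against each other at r = -0.90 (rho -0.93, exact permutation adjusted p = 0.00967 over 45 correlations within groups), and still at -0.83 without the 2 arrays farthest from the median of Pou3f1 (exact permutation p = 0.0321). Pcp4 and Pou3f1 ran against each other in young arrays at -0.90 (rho -0.78, exact permutation adjusted p = 0.0476), which rested on those arrays: without the 2 farthest it was -0.51 (exact permutation p = 0.248). Fibcd1 and Prox1 gave -0.84 in young arrays (rho -0.88, exact permutation adjusted p = 0.0625), and -0.69 without the 2 farthest. The difference in r between aged impaired and young arrays was 1.65 for Pou3f1 with Prox1 and 1.44 for Fibcd1 with Prox1. A permutation test that exchanged the group labels of centred values gave p = 0.00877 for the first and 0.00184 for the second. The permutation p adjusted over 45 differences was 0.132 and 0.0828, so that neither passed. This test was added after the correlations were seen.

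**Figure D5:**
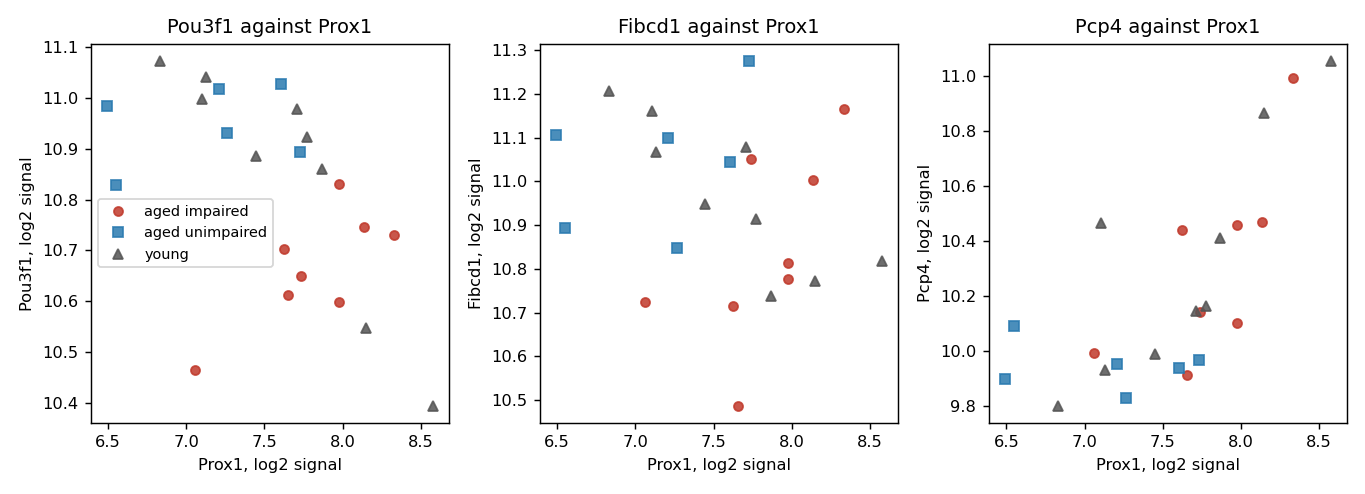
Log2 signal of Pou3f1, Fibcd1 and Pcp4 (vertical axes) against that of Prox1 (horizontal axes) in each array, with symbols for aged impaired, aged unimpaired and young rats. Pou3f1 and Prox1 have a positive r of 0.75 among aged impaired arrays and run against each other among young arrays (r = -0.90), while Pcp4 and Prox1 are both highest in young replicate 4 (11.05 and 8.58).

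All other genes tested were ranked by how closely they followed each member over the 23 arrays, as Pearson r after removal of group means, with no test since they were picked as the extremes of 9075 genes. Wfs1 was followed most closely by the scaffold protein Iqgap2 (0.86), the secreted ligand Wnt2 (0.82) and the receptor phosphatase Ptpru (0.82), and ran most against Cyp26b1, which degrades retinoic acid (-0.79), and the kinase anchor Akap12 (-0.78). Cyp26b1 was also the gene that ran most against Fibcd1 (-0.74), ahead of the amino acid transporter Slc38a1 (-0.70). Fibcd1 was followed by Lto1, Pcgf3 and Ajm1 (0.80, 0.80 and 0.79). Pou3f1 was followed by the RNA-processing genes Lsm7 (0.84) and Snrpb (0.83) and by Vxn (0.84), and ran against Zfpm2 (-0.85) and Parp11 (-0.84). Pcp4 was followed by the semaphorin receptor Nrp2 (0.87), the potassium channel Kcnq5 (0.85) and Tmem35a (0.85), and ran against the BMP antagonist Chrd (-0.76) and the adhesion receptor Adgrl2 (-0.74). Rgs14 was followed by Galnt18 (0.84), Tmem151a (0.83) and Nrip3 (0.83), and ran against the cadherin Cdh22 (-0.80) and Tshz2 (-0.76). Prox1 was followed by the Rac activator Tiam1 (0.81), the atypical cadherin Fat4 (0.81) and Fam124a (0.71), and ran against Trerf1 (-0.70) and Anapc7 (-0.70). Among all genes, Prox1 ranked 64 in likeness to Pcp4 and Pcp4 ranked 20 in likeness to Prox1, while Pou3f1 ranked 37 for Wfs1. The number of genes with an r over 0.5 was 132 for Prox1, 321 for Pcp4, 338 for Wfs1, 674 for Rgs14, 711 for Pou3f1 and 790 for Fibcd1.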

How the data were processed

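Expression was measured in CA1 tissue of 24 rats, with 1 array each. The deposited values are log2 signals per probe set. GCRMA, a method that subtracts background and normalizes, is the tool named in the submitters' processing notes. Its version and settings are not given in the sources used here. The column of 1 aged unimpaired array, omitted by the submitters after quality control, was blank, which left 23 arrays. Of 31099 probe sets 20832 carried 1 gene symbol in the platform annotation, 436 carried several and 9831 none. Each gene was represented by its brightest probe set among those with a log2 signal over 4 on 6 or more arrays, so that 9076 genes were tested. A model of 3 group means was fitted in R 4.3.3 (limma 3.58.1), with Benjamini-Hochberg adjustment over all genes and a threshold of 0.05. In the mean of all aged rats each array counted equally.

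Members were also tested by 2-sided exact permutation over arrays, and correlations by 100000 permutations within groups, or all permutations within 1 group (NumPy 2.4.6, SciPy 1.17.1). The fit was tested on simulated data. The members and lists were chosen with earlier results of these data known. All members were named, with up to 4 genes of a wider list by smallest p and the 3 most and 2 least alike genes of each member. The remaining measured subfield genes were named after their values were seen, to complete those lists. Alternatives covered the filter, the probe sets, normalization, weights, moderation, RNA quality, Prox1 as a covariate, a block by replicate number and leaving out arrays. No batch was given, so none was modelled. The labels call the arrays biological replicates. Their number limits the precision.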

Additional observations from a re-analysis of the deposited data

Results flagged for a closer look

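In the second, dim probe set of Prox1 the signal of aged unimpaired replicate 5 was 2.01, below the next lowest of its group at 2.03 by a gap of 0.675 of the group's range, above the limit of 0.625 for 6 arrays. Chance gives about 1 such value in 20 groups, and 21 groups were checked. The probe set was over the limit for dim signals on 0 of 23 arrays.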

How the results depend on the processing

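No member was called in any comparison under the alternatives, with exceptions in aged impaired against young only, where 1 member (Pou3f1) was called without young replicate 4 and without the 4 arrays of highest Cpne4 (range over the 23 fits without 1 array, 0 to 1). Leaving out those 4 arrays turned the direction of 4 differences that were not called: Pcp4 to 0.0495 in aged impaired against young, Pou3f1 to -0.0186 in aged unimpaired against young, and Wfs1 to -0.0378 and Prox1 to 0.0405 in aged against young. Leaving out 1 array gave ranges that crossed 0 for Pcp4 in aged impaired against young (-0.0975 to 0.0918) and for Wfs1 (-0.0024 to 0.105) and Prox1 (-0.194 to 0.0239) in aged against young. It did so too for the correlations of Fibcd1 with Pcp4 (-0.25 to 0.12), Fibcd1 with Prox1 (-0.19 to 0.0624), Wfs1 with Prox1 (-0.19 to 0.0871) and Rgs14 with Prox1 (-0.0481 to 0.26), none of which passed. With group means left in, the correlation of Wfs1 with Rgs14 was 0.25 and of Pou3f1 with Rgs14 0.31, neither called, while those of Pou3f1 with Pcp4 (-0.58) and Prox1 (-0.53) and of Wfs1 with Pcp4 (-0.51) were called. The calls of Wfs1 with Rgs14 and Pou3f1 with Rgs14 were lost without young replicate 4, and that of Fibcd1 with Pou3f1 without young replicate 6 or 8 (0.47 each). Fibcd1 with Rgs14 was called by Spearman rho (0.50, permutation adjusted p = 0.0494). In the fits without 1 array the lowest permutation adjusted p was 0.00555 for that pair. It was 0.0259 for Pou3f1 with Pcp4 and 0.0393 for Pou3f1 with Prox1, so each was called in some fit. Same-numbered arrays of different groups did not deviate together (median r -0.0519 over 20 pairs, 1 of them over 0.1), so the numbers were not taken as pairs. With the replicate block, 0 members were called in each comparison, and the difference in Prox1 between aged impaired and aged unimpaired was 0.74. The count over all genes moved by over 1.5 times with the replicate block, at 165 against 345 for aged impaired against young, 31 against 69 for aged unimpaired against young, 1 against 0 between the aged groups and 159 against 337 for aged against young. It was 149 with array weights and 30 with Prox1 as a covariate for aged unimpaired against young, 1 between the aged groups with only those groups in the fit, and 149 and 136 without the 4 arrays for aged impaired and all aged against young. Without 1 array it fell to 228 (aged impaired replicate 6, impaired against young), 35 (aged unimpaired replicate 4, unimpaired against young) and 224 (young replicate 2, aged against young). The causes were not tested.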
